A study of Mus musculus with 12 samples.

Results

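The genes described here are 10 components of transforming growth factor beta (TGF-beta) and bone morphogenetic protein (BMP) signalling in MLE-12 cells, a line derived from mouse lung epithelium. They are Ltbp1, Acvr1, Acvr1b, Bmpr1a, Acvr2a, Smad3, Smad4, Ski, Skil and Id3. They were selected by name, from genes that had an entry in at least 1 of 3 deposited candidate lists of the microRNA Mirlet7d, so their presence, folds and peak scores are a description and not a test. The lists name 5714 genes in all. The 10 genes account for 3 of 1964 mRNA transcripts, 8 of 2432 promoter-associated non-coding RNAs (ncRNAs) and 7 of 4286 chromatin peaks.

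The series holds 12 libraries, each alone in its group, so no value has a replicate error. In the pull-down, cells were transfected with 25 nM of biotinylated Mirlet7d, ordered as a custom LNA oligonucleotide according to the labels, for 48 h before harvest. RNA held by streptavidin beads was sequenced beside an input RNA library from cells given the same treatment protocol. In ChIRP-seq, 150 pmol of biotinylated probes against mature Mirlet7d captured chromatin of MLE-12 cells, and the attached DNA was sequenced. The labels tag that library as Mirlet7d gain of function. An input library labelled as control belongs to the series, and whether the peaks were called against it is not given in the sources used here. The Mirlet7d capture and its input are the 2 groups behind every fold below, and the ChIRP-seq library is the source of every peak. No capture with a control bait was analysed here, so binding to Mirlet7d and capture without it cannot be told apart. Only selected candidates are listed, so the levels of lung markers in these cells could not be read from the files. Of 10 lung epithelial markers, Lamp3 was in the mRNA list, and Sftpb, Nkx2-1, Scgb1a1 and Cdh1 were nearest to a peak. Markers of other cell types were listed too: all 4 mesenchymal markers (Col1a2 and Pdgfrb as mRNAs, Col1a1 and Vim by peaks), 2 of 3 endothelial markers (Kdr as mRNA, Pecam1 by a peak) and 1 of 2 immune markers (Cd68, by a promoter ncRNA). Of 26220 genes with a curated RefSeq transcript, 5.75% had an entry in the mRNA list, 6.17% in the promoter ncRNA list and 12.1% by a peak. With so few markers, nothing is read from these counts. An entry is not a level, and the part of other cell types in the results was not tested.

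TGF-beta, activin and BMP ligands bind pairs of type I and type II serine/threonine kinase receptors, which phosphorylate receptor-regulated Smad proteins. These join the common partner Smad4, enter the nucleus and act on target genes, where the corepressors Ski and SnoN (encoded by Skil) restrain them. In lung epithelium the pathway is known for its part in branching, differentiation, injury repair and fibrosis. Mirlet7d is a member of the let-7 family, microRNAs that recognise RNA mainly through a short seed near their 5′ end.

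The sequences of the bait and of the promoters at which ncRNAs were captured are shown first, because the seed is what the bait offers for pairing and the authors' list ties the captured ncRNAs to these promoters. All are from RefSeq, build GRCm38.p6, 5′ to 3′ on the strand of the gene. The mature microRNA is at chr13:48536078-48536099 on the minus strand, and its capitals mark the seed, bases 2 to 8.
mmu-let-7d-5p: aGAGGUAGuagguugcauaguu
The next 3 are the 250 bases before the start of the receptor genes whose promoter ncRNAs were listed, with each CpG dinucleotide in capitals. Acvr1 is at chr2:58566829-58567078 (minus strand), Acvr2a at chr2:48813859-48814108 (plus) and Bmpr1a at chr14:34502547-34502796 (minus).
Acvr1: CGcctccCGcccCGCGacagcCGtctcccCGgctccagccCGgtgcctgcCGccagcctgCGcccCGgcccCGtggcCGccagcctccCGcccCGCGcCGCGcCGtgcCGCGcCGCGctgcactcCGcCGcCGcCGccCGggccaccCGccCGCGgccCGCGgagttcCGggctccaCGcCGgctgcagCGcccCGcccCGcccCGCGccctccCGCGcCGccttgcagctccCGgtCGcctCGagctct
Acvr2a: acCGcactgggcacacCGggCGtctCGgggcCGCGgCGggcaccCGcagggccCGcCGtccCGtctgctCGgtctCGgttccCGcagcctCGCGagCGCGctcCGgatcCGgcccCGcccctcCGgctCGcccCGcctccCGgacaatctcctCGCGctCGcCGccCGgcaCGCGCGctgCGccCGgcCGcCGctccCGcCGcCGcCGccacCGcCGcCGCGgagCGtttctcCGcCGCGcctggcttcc
Bmpr1a: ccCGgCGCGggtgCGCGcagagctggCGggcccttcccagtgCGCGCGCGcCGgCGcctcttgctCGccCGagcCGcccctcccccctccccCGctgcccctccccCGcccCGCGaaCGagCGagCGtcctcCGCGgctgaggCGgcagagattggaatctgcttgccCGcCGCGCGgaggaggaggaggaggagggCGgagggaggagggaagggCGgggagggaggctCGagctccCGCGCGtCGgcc
For contrast, the last pair shows the same stretch before the upstream and the downstream start of Ltbp1, whose 2 listed transcripts begin at different places. They are at chr17:75005279-75005528 and chr17:75178531-75178780, both on the plus strand.
Ltbp1 upstream start: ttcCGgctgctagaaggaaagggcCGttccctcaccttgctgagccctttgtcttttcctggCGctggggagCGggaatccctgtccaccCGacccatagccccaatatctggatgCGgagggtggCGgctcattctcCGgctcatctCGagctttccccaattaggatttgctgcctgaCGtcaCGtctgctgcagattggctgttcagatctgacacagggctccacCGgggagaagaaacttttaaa
Ltbp1 downstream start: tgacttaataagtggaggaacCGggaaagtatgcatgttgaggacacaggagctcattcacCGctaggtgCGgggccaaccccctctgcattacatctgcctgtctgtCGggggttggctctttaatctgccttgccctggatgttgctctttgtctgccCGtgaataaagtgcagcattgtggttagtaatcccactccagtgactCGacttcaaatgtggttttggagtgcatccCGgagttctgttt

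The receptor promoters were dense in CpG. In windows of 300 bases (250 before and 50 after the start), Acvr1 had 51 CpG dinucleotides and a GC content of 83.7%, Acvr2a 54 and 80.3%, and Bmpr1a 48 and 79.3%. The median of all 32851 windows in the RefSeq table was 7 CpG and 52.7% GC. At least 98.8% of the windows had fewer CpG than each of these 3. Ski, which had no promoter ncRNA, had more CpG still (59), and Acvr1b had 51, so a CpG-dense start was not limited to genes with a listed ncRNA. Smad3 had 25, Id3 19, and the upstream and downstream starts of Ltbp1 17 and 7. Windows were found for 8 of the 10 genes, 9 windows in all, and none for Smad4 or Skil. The letters CTACCTC, which pair with the seed, or GAGGTAG on the other strand, were in 0 of the 9 windows and in 3.85% of all windows. With the shorter match TACCTC the numbers were 0 of 9 and 10.0%. With 9 windows and such low shares, nothing is read from the 0. The windows are promoter sequence, and the captured RNAs themselves were not searched for the match. CAGAC, the Smad-binding element, or GTCTG on the other strand, was in 4 of the 9 windows (Acvr2a, Id3 and both of Ltbp1) and in 49.6% of all windows.

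Among the ligand-handling genes, Ltbp1 was the listed member. It encodes a matrix protein that stores latent TGF-beta. Its shorter transcript, ENSMUST00000112514.1 (mm9, chromosome 17 from 75578251 to 75790666), had 0.003 RPKM in the input and 0.074 in the pull-down, a listed fold of 24.67. Its longer transcript, ENSMUST00000001927.5, begins upstream at 75404908 and ends at 75791107. It had 0.007 RPKM in the input and 0.042 in the pull-down, a fold of 6.0. RPKM is reads per kilobase of length and per M reads of a denominator, which differed between the mRNA and ncRNA lists for the same library. The deposited length is that of the whole gene body, so introns count as length, and all levels of Ltbp1 were low on this scale.

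Because the spans are long, these low levels still rest on countable reads. From the whole-read steps in the deposited values, the shorter span had about 15 input reads (13 to 17 with rounding) and 661 in the pull-down (656 to 665). The longer span had 64 input reads (60 to 69) and 682 in the pull-down (674 to 689). The 95% exact interval of the fold, widened for rounding, was 13.6 to 54.8 for the shorter transcript and 4.32 to 8.63 for the longer one. The spans are nested, so they share their reads and are not independent. The 173784 bases of the longer span outside the shorter one held 43 to 56 input reads but only 9 to 33 pull-down reads, a depth-scaled ratio of 0.0912 to 0.436. Thus 96.9% of the pull-down reads of the longer span lay in the shorter one, which makes up 55.0% of its length. The enrichment of Ltbp1 came from the shorter span. The bases outside it had fewer reads in the pull-down than in the input after scaling for depth. Of those bases 173343 lie before the shorter span and 441 after it, and the reads could not be placed among them.

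**Figure D1:**
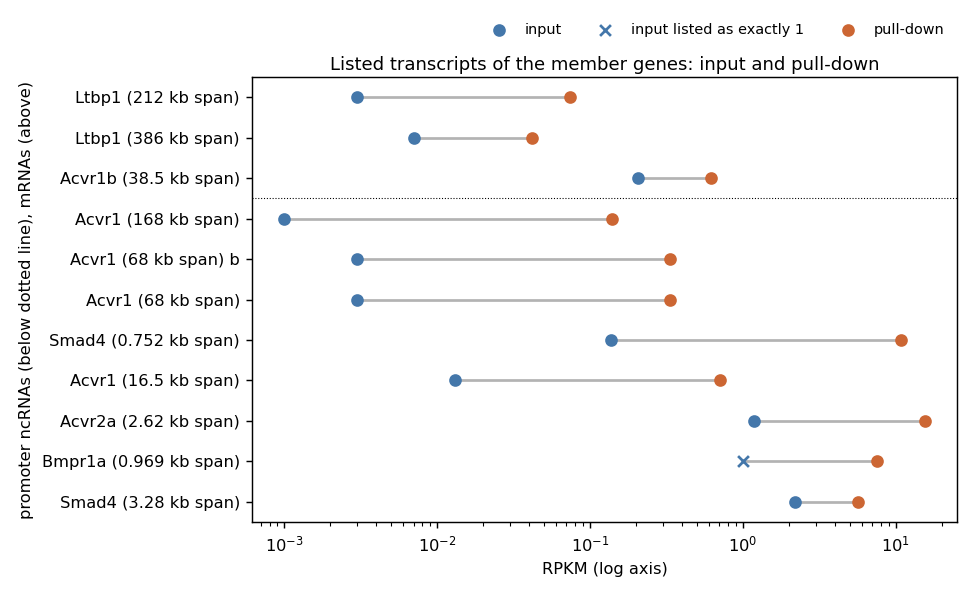
RPKM of the 11 listed transcripts of the member genes in the input and in the pull-down, 1 library each, on a log axis, with the 3 mRNAs above the dotted line and the 8 promoter ncRNAs below it (b marks the second Acvr1 entry of the same rounded span). The pull-down is above the input throughout, because only folds of at least 2.5 were listed. RPKM cannot be compared across the dotted line.

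Among the type I receptors, Acvr1b, Acvr1 and Bmpr1a were listed. Acvr1b (ALK4), the activin type I receptor, was listed as an mRNA, ENSMUST00000000544.8 (mm9, chromosome 15 from 101004556 to 101043032). It had 0.206 RPKM in the input and 0.62 in the pull-down, or 189 and 1002 reads, a fold of 3.01 with an interval of 2.57 to 3.54. It was the best measured member mRNA, and its fold was below the list's median of 4.93. Of the 3 member mRNA transcripts, 1 reached a fold of 10, and 26.7% of all listed mRNA transcripts did. With members chosen from the list, nothing is read from that comparison.

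An ncRNA lies across the end of Acvr1b. NONMMUT025076 (chromosome 15 from 101042459 to 101044109) shares 573 bases with the mRNA span and runs 1077 bases past it. It had 0.251 RPKM in the input and 25.713 in the pull-down, a fold of 102.44 (interval 28.2 to 851, from 4 and 635 reads). It is not in the promoter-associated list and was found after the values were seen. Over the whole of Acvr1b the capture was 3.01-fold, and over this 1650-base stretch at its end it was 102.44-fold, in tables with different read denominators.

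Acvr1 (ALK2), a BMP type I receptor, had 4 promoter-associated ncRNAs, all beginning within 85 bases of each other on chromosome 2. From the shortest span to the longest, NONMMUT037403 (58419729 to 58436193) went from 0.013 RPKM in the input to 0.706 in the pull-down, a fold of 54.31. NONMMUT037401 and NONMMUT037402, which differ by 1 base in length (67982 and 67983), both went from 0.003 to 0.332 (110.67). NONMMUT037404 (58419794 to 58588068) went from 0.001 to 0.14 (140.0). The longer the span, the lower was the level and the higher the listed fold, although the last step was within rounding.

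These 4 entries stand on 1 set of reads. Each had 2 input reads, although for the longest rounding allows 1 as well. The pull-down had 174 reads in the shortest, 338 in both middle spans and 352 to 353 in the longest. Another candidate outside the promoter list, NONMMUT037405 (58424109 to 58427454), lies inside all 4 and already held the same number of 2 input reads, with 98 in the pull-down (31.56-fold). Reads were spread unevenly. The innermost 3345 bases had 1.957 RPKM in the pull-down, and the other 13119 bases of the shortest promoter ncRNA 0.387. The 51519 bases that NONMMUT037402 adds had 164 pull-down reads, or 0.213 RPKM. The longest entry begins 85 bases later and is 100291 bases longer, and it added about 15 reads, or 0.00999 RPKM. The captured RNA therefore lay mostly in the first 68 kb, and the rise of the listed fold from 31.56 to 140.0 came with a fixed input of 2 reads at most. For the last step, from 110.67 to 140.0, the ranges that rounding allows overlap (94.7 to 133.0 and 93.0 to 281.0). Counted as pairs, the intervals ran from 9.82 to 2240 for the shortest promoter ncRNA and from 20.1 to 4540 for the longest.

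**Figure D2:**
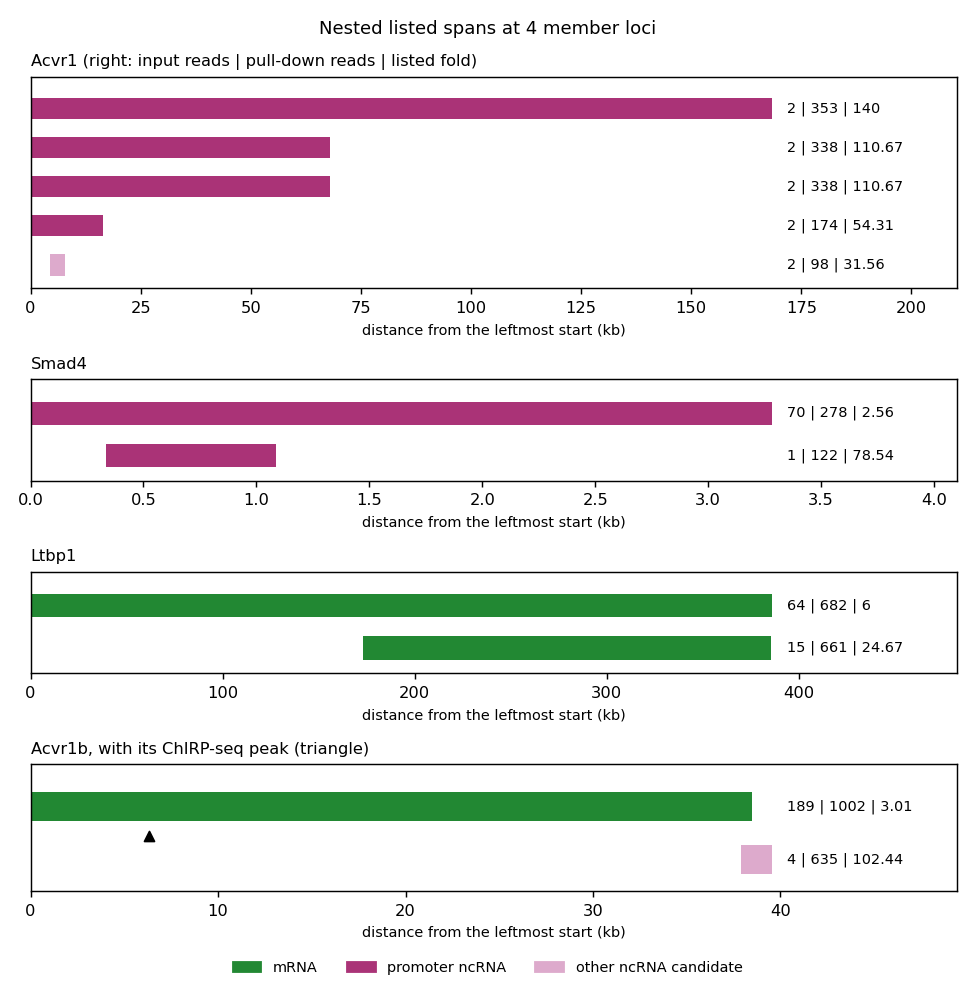
Listed spans at Acvr1, Smad4, Ltbp1 and Acvr1b, drawn to scale as distance from the leftmost start in kb, with recovered input reads, pull-down reads and listed fold at the right of each span. At Acvr1 all 5 spans show 2 input reads while the pull-down goes from 98 to 353 reads. Read numbers of mRNA and ncRNA bars come from tables with different denominators.

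Bmpr1a (ALK3), another BMP type I receptor, had the ncRNA NONMMUT020341 (chromosome 14 from 35314901 to 35315870). The pull-down had 7.516 RPKM, which corresponds to 109 reads. The input is listed as exactly 1 RPKM, a value that 25.2% of the 6208 ncRNA candidates carry and that gave whole reads in only 29.9% of the cases that could be checked. The fold of 7.52 is thus the pull-down level itself, and no interval was given.

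Among the type II receptors, Acvr2a was the member with an entry. It encodes an activin receptor that also binds BMPs. Its ncRNA NONMMUT037166 (chromosome 2 from 48669661 to 48672285) had 1.183 RPKM in the input and 15.685 in the pull-down, or 30 and 616 reads. The fold of 13.26 had an interval of 7.91 to 24.0, the narrowest of the member ncRNAs with a fold above 10. Among the member ncRNAs it is the one with a fold above 10 whose input exceeded 2 reads. A second candidate, NONMMUT037167, lay 21351 bases further along with 2.866 RPKM in the pull-down (2.87-fold) over an input of exactly 1.

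Smad4, the common Smad, had 2 nested promoter ncRNAs on chromosome 18 with very different folds. NONMMUT032989 (73863580 to 73866863) had 2.207 RPKM in the input and 5.658 in the pull-down, or 70 and 278 reads, and a fold of 2.56 (1.76 to 3.83), just above the lowest listed fold of 2.5. Inside it, NONMMUT032990 (73863913 to 73864665) had 0.138 and 10.839 RPKM, or 1 and 122 reads, and a fold of 78.54 (6.81 to 1580). The inner 752 bases are 22.9% of the longer span and held 43.9% of its pull-down reads but 1 of its 70 input reads. The remaining 2531 bases had 69 input and 156 pull-down reads, 1.46-fold. The 2 Smad4 entries are therefore parts of 1 locus, with a 752-base stretch of high fold beside sequence of much lower fold. In the pull-down the inner part had 10.839 RPKM and the rest 4.12. The larger contrast was in the input, with 1 read inside and 69 outside.

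Of the 8 member promoter ncRNAs, 6 reached a fold of 10, 4 of them at Acvr1, and 25.0% of all promoter-associated entries did. The median of that list was 5.12. Since the 4 Acvr1 entries share reads, the 6 entries come from 3 loci. At the other pathway genes the highest promoter ncRNA fold was 5.26, at Tgif1. The members were chosen with earlier results known, so nothing is read from the comparison with all entries.

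**Figure D3:**
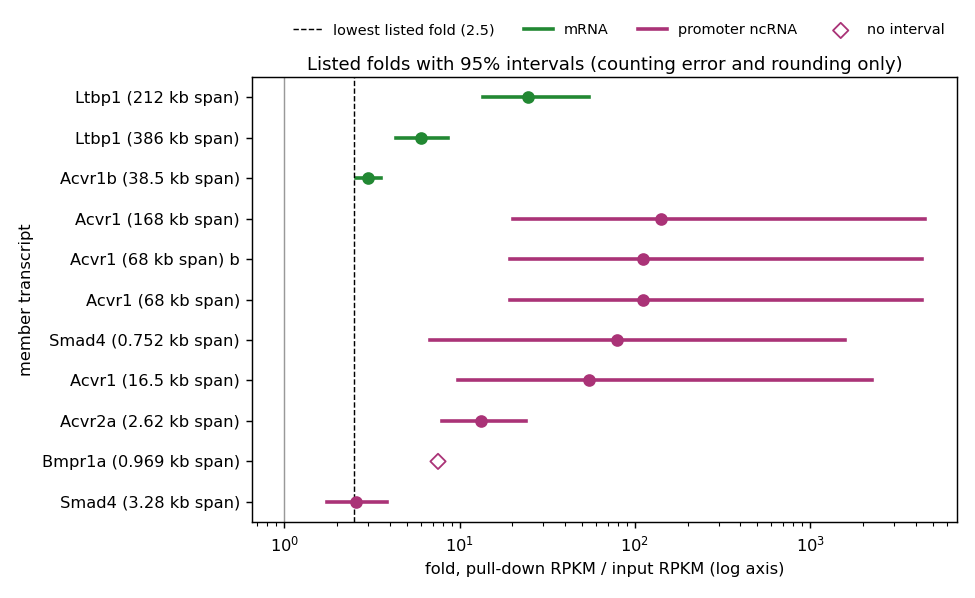
Listed fold of each member transcript on a log axis, with the 95% exact interval from recovered reads, widened for rounding (ncRNA reads counted as pairs). Bmpr1a has no interval, the Acvr1b and Acvr2a intervals are narrow, and those of Acvr1 and the shorter Smad4 ncRNA span over 2 powers of 10.

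In ChIRP-seq, 5 member genes were nearest to 7 peaks: Skil, Smad3, Ski, Id3 and Acvr1b. None of the 7 was annotated to a promoter, nor were any of the 10 peaks at other pathway genes. Of all peaks, 9.45% were. The peak score is the authors' own and ranks peaks within the list alone. Skil had the highest member score, 50.71, above 90.6% of all peaks (mm9, chromosome 3 from 30977544 to 30978477). It lies upstream of the gene in intergenic sequence, at a deposited distance of -15970 bases from the transcription start site (TSS). The deposited annotation places it on a (CAGA)n simple repeat, the 1 peak of 4286 with that repeat name, and 78 peaks lay on simple repeats. Other names for the same repeat were not searched. CAGA is the core of the Smad-binding element, and Skil is known as a direct target of Smad signalling that feeds back on it. Neither the part of the repeat in the score nor a link between this peak and Smad signalling was tested.

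Smad3, the receptor-regulated Smad of TGF-beta and activin, had a peak of 41.61 on chromosome 9 (63551978 to 63552393), at a TSS distance of 53616 in intron 1 of 8. Ski, the founding corepressor of its family, had peaks of 40.23 and 38.56 on chromosome 4 (154538547 to 154539217 and 154547917 to 154548446). They were 8700 bases apart in intron 1 of 6, at TSS distances of 57762 and 48463. Acvr1b had a peak of 30.35, near the list's lowest score of 30.01, on chromosome 15 (101010643 to 101011123), in intron 1 of 8 on an LTR element at a TSS distance of 6327. All 4 intronic member peaks, from 3 genes, lay in intron 1, against 39.5% of all 1826 intronic peaks. The 3 intronic peaks at other genes of the pathway (Smad1, Tgfbr2 and Ltbp4) lay in later introns.

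Id3, a target of BMP signalling that inhibits basic helix-loop-helix factors, had 2 intergenic peaks upstream of its TSS on chromosome 4. The farther one scored 39.98 (135666258 to 135667106, distance -33055) and the nearer one 32.81 (135679552 to 135680080, distance -19921), and 12446 bases separated them. Peaks with another peak within 20 kb made up 4 of the 7 member peaks and 31.5% of all peaks, the 4 being the pairs at Ski and Id3.

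**Figure D4:**
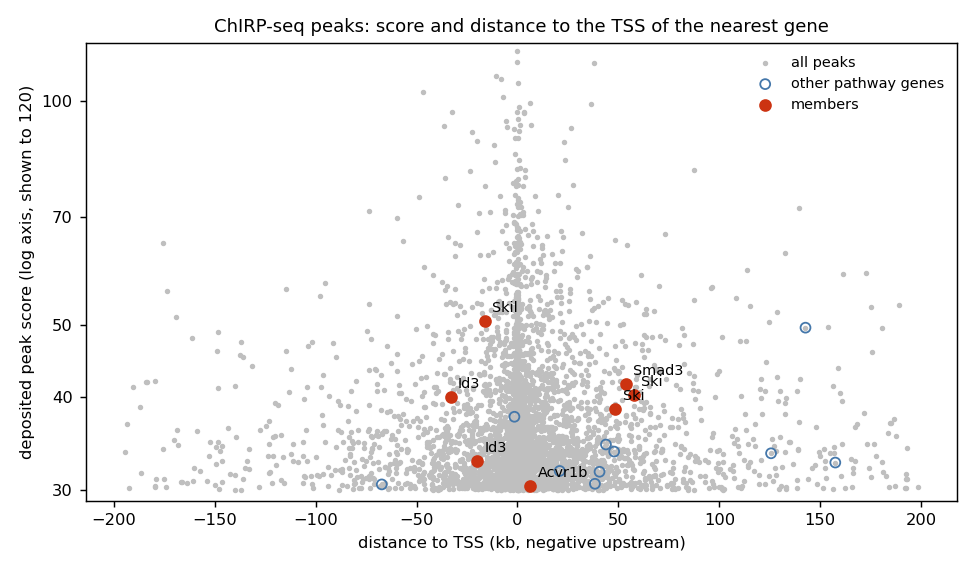
Deposited score (log axis) of ChIRP-seq peaks against distance to the nearest TSS in kb, with member peaks in red, other pathway genes as open circles and all peaks in grey. The highest scores and the most distant peaks of the whole list lie beyond the axes. Member peaks stand away from the TSS, as do most of those at other pathway genes. Acvr1b is the nearest member at 6327 bases, with a score close to the list's minimum.

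Of the 7 member peaks 3 scored at least 40, and 24.8% of all peaks did. Of the 10 peaks at other pathway genes, 1 did. The members were chosen with earlier results known, so nothing is read from the share of the members. The median distance of the member peaks from a TSS was 33055 bases, that of peaks at other pathway genes 45861, and that of all peaks 14234. Within 10 kb of a TSS lay 1 of the 7, 1 of the 10 peaks at other pathway genes and 42.6% of all peaks. The distance from a TSS was thus not particular to the members. Chromosomes 6, 8, 11, 16 and 19, which hold 62.2% of all peaks, held 0 of the 7. The member genes with peaks lie on other chromosomes, so this 0 was fixed by the choice of genes and nothing is read from it.

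Peaks and captured RNAs were also compared by position. No member peak was within 10 kb of an ncRNA candidate (0 of 7), where 12.4% of all peaks were, and 3 of the 7 were within 50 kb. With 7 peaks and so low a share among all peaks, nothing is read from the 0. The smallest gap was at Ski, with 12450 bases between the 40.23 peak and NONMMUT050936 (12.04-fold over an input of exactly 1). At Skil the gap was 117472 bases and at Smad3 232119. Acvr1b was the 1 member with both an mRNA entry and a peak, and the peak lay inside the mRNA span, 31336 bases from the ncRNA at the end of the gene. No member had both a promoter ncRNA and a peak.

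The wider pathway was described with a list of 66 genes, the 10 members included, that was written with earlier results of these data known. In the mRNA list 7 of 66 had an entry, and 5.75% of the 26220 genes with a curated RefSeq transcript did. The counts were 8 of 66 and 6.17% for promoter ncRNAs, and 13 of 66 and 12.1% for peaks. The RefSeq genes were not limited to those expressed in these cells and the members were picked from the lists, so the counts describe and do not test. In all, 26 of the 66 had an entry and 40 had none. The lists together name 5714 genes, and the share of RefSeq genes with an entry in any list was not computed. All 10 members are among the 26 by selection, so no excess is read from this count.

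By role, the 14 ligands had 1 entry, a pair of peaks at Inhbb, the beta B subunit of inhibin and activin (49.6 and 32.65, at TSS distances of 142687 and 157457). Among the 8 extracellular antagonists, mRNAs of Fstl3, a follistatin-like activin inhibitor (45.5-fold from 1 input read, interval 8.12 to 1860), and of the BMP antagonist Nog (6.01-fold, 3.65 to 10.5) were listed. Ltbp2 (3.0) and the target Tgfbi (6.0) had intervals that include 1, with 12 and 7 pull-down reads. Acvr1c (ALK7) had 2.83 (1.42 to 6.35).

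Besides Acvr2a, the type II receptors had Tgfbr2, with an intronic peak of 34.53. Of the Smads, Smad1, Smad3, Smad5 and Smad6 had peaks, Smad4 and Smad7 had promoter ncRNAs, and Smad2 and Smad9 had no entry. Smad1 had 2 peaks, one of 37.63 at a distance of -1515 and one of 33.78, Smad5 had 1 of 30.57 in its 3′ UTR, and Smad6 had 1 of 33.6. Smad7, an inhibitory Smad, had 2 promoter ncRNAs at 4.08 (3.19 to 5.29) and 3.48 (1.97 to 6.71). All 4 corepressors had an entry, Ski and Skil by peaks and Tgif1 and Tgif2 by promoter ncRNAs (5.26 at most and 2.92). Of all RefSeq genes, 12.1% had a peak and 6.17% a promoter ncRNA. Ski and Skil were chosen because they had an entry, so the full count is not a result about corepressors. The interval of Tgif2, 0.957 to 11.8, includes 1. Of the targets, Ctgf, a matrix-associated growth regulator, had a promoter ncRNA (5.02, 2.3 to 13.2) and a peak (31.73), and Pmepa1 a peak of 30.51. Ltbp4 had a peak of 31.81. The 3 co-receptors and the 3 adaptor or ubiquitin ligase genes had none.

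**Figure D5:**
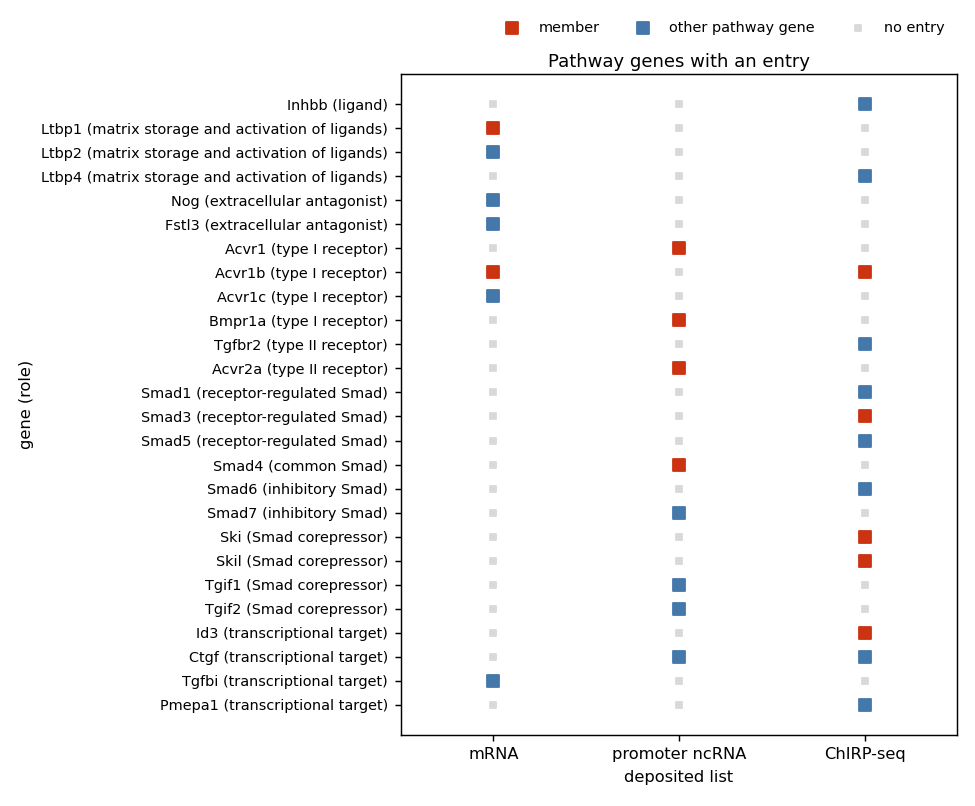
The 26 of 66 pathway genes with an entry, by role, against the 3 deposited lists, with members in red and other pathway genes in blue. Acvr1b and Ctgf each have entries in 2 lists, and the other 24 in 1.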

How the data were processed

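The pull-down and ChIRP-seq samples were analysed, 1 library each. Per the submitters' processing notes, both assays used Bowtie2, HOMER, FastQC, bedtools (2.15 in the pull-down) and SAMtools on mm9. Trimmomatic and Picard 1.119 are listed for the pull-down alone and MACS for ChIRP-seq alone. The RPKM values of input and pull-down were deposited rounded to 3 decimals, per the file headers, and the deposited fold is their ratio. The peak score and the TSS distance are the authors' values, per the file headers. Whether reads were counted over exons or whole spans is not given in the sources used here.

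RPKM times length fell on whole reads in 100.0% of the values checked (tolerance 0.15 reads), with denominators of 23.9 M and 42.0 M reads in the mRNA table and 9.66 M and 15.0 M in the ncRNA table. An inner span never had more reads than the span around it, in 2550 of 2550 ncRNA input pairs and 64 of 64 mRNA input pairs. Recovery of denominators was tested on simulated data. Intervals are 95% exact (Clopper-Pearson, conditional on the sum), widened to the reads that rounding allows, and cover counting error alone, since PCR copies were not separable. They compare 2 libraries, not conditions. Reads of ncRNAs were counted as pairs because 79.9% of the input numbers and 70.8% of the pull-down numbers were even. Odd numbers were rounded up, so the 1 input read of the shorter Smad4 ncRNA counted as 1 pair while its pull-down reads were halved. Its interval is therefore placed lower than its listed fold implies. Python 3.11.15, pandas 2.3.3 and scipy 1.17.1 were used. All members were named, as was every other pathway gene with an entry. The members and lists were chosen with earlier results of these data known. Alternatives were pseudocounts, rounding bounds, filters on input, fold, score and TSS distance, and other windows. Promoters and genes came from RefSeq, GRCm38.p6, and all 66 pathway genes matched.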

Additional observations from a re-analysis of the deposited data

How the results depend on the processing

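No library could be left out, since each group had 1, and no paired analysis was possible because each group has a single sample. Pathway genes in the mRNA list went from 7 to 2 with an input of at least 0.01 RPKM (Acvr1b and Nog) and to 4 with a fold of at least 5. In the ChIRP-seq list they went from 13 to 4 with a score of at least 40 and to 2 within 10 kb of the TSS. The other settings, 3 for promoter ncRNAs and 1 for repeats, stayed within 1.5 times. Member peaks near an ncRNA candidate went from 0 within 10 kb to 3 within 50 kb. Of 44 alternative values of member folds, 12 moved beyond their interval (Bmpr1a, without one, by any change over rounding), all 12 with a pseudocount. None could fall below 1 under these settings, because every listed pull-down level is well above its input. With 0.1 RPKM added, the 140-fold Acvr1 ncRNA had 2.38 and the shorter Ltbp1 transcript 1.69, and Acvr2a kept 12.3. Counting ncRNA reads singly raised all 7 lower bounds. It lowered 5 upper bounds but raised those of the longest Acvr1 ncRNA (4540 to 9030) and the shorter Smad4 ncRNA (1580 to 3140), where 1 input read is possible. Depth limits the Acvr1 and shorter Smad4 folds, which rest on 1 or 2 input reads.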

Other observations

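The nested promoter ncRNAs of Tgif1, a corepressor of Smad signalling, showed the same kind of arithmetic as Acvr1. The inner span, NONMMUT030414, had 34 input and 144 pull-down reads (2.73-fold), and the span around it, NONMMUT030413, had the same number of 34 input reads but 277 in the pull-down (5.26-fold). The 2694 bases outside the inner span thus added 133 pull-down reads and no input read. The folds of 2.73 and 5.26 have intervals that overlap, 1.59 to 4.95 and 3.18 to 9.32, and the entries share their reads. The Smad3 and Smad6 peaks on chromosome 9 were each other's neighbours in the peak list at 191459 bases, with the Smad6 peak 39879 bases from NONMMUT069532, an ncRNA with 6.561 RPKM in the input and 21.342 in the pull-down (3.25-fold).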
